A study of Mus musculus with 8 samples.

Results

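The 54 genes described here encode the transcription factor MYC, 2 enzymes of polyamine synthesis and 51 proteins that make ribosomes. They were taken as a fixed list of symbols, and all 54 were found among the 54188 genes counted and passed the filter on low counts that left 17650 genes for testing. Counts came from RNA-seq of CD11b+ myeloid cells sorted by FACS into Gr-1hi and Gr-1lo subsets. The cells came from spleen (SP) or bone marrow (BM), and each of the 4 groups had 2 libraries. The labels call the Gr-1hi cells G-MDSC and the Gr-1lo cells M-MDSC, names for granulocytic and monocytic myeloid-derived suppressor cells. Every donor mouse was a 20-week-old sanroque mouse, homozygous for the san mutation of Roquin (san/san) on the C57BL/6 background and labelled female. Sanroque mice develop a lupus-like autoimmune disease, and the mutation is carried by all of their cells. Since all 4 groups carried the mutation, the comparisons are between tissues and between subsets, and none of them is with wild-type cells.

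MYC binds DNA as a dimer with MAX, mostly at the motif CACGTG (the E-box) and close variants of it, and raises the transcription of many genes that serve growth. Among these are genes for RNA polymerase I, which transcribes the long precursor of the ribosomal RNAs in the nucleolus, and for the proteins that modify, cut and fold this precursor into the small and the large ribosomal subunit. In myeloid cells this programme is high in dividing precursors and is shut down as neutrophils mature, so that mature neutrophils contain little ribosomal RNA and few nucleoli. Monocytes keep more of it.

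Libraries held 33453580 to 68316154 counts. Values are given as CPM, counts scaled to the size of the library, after TMM scaling, whose factors ran from 0.724 to 1.30, and a count of 0 allowed at most 0.0348 to 0.124 CPM (3 counts in the library, for counting error only). Ly6g, which encodes the granulocyte antigen seen by Gr-1 antibodies, was at 330.0 to 801 CPM in the Gr-1hi libraries and at 3.07 to 8.23 CPM in the Gr-1lo libraries. Csf1r, which encodes a receptor of monocytes, was at 436 to 754 CPM in the Gr-1lo and at 133 to 375 CPM in the Gr-1hi libraries, and Itgam, which encodes CD11b, was at 734 CPM or more in every library. One check went against the labels. Xist, which is transcribed from an inactive X chromosome, had 12032 counts in library 5 (SP Gr-1hi) and 9898 in library 7 (SP Gr-1lo) but at most 5 in the other 6 libraries, and the Y-linked gene Ddx3y had 0 counts in library 5 and 33.7 to 82.6 CPM in the other 7. All libraries were labelled female. High Xist was thus seen in 1 library of each SP group and in neither BM group, so this pattern was not balanced between the tissues. Library 7 had both Xist and Ddx3y. Counts of members are therefore also given without libraries 5 and 7, which leaves 1 library in each SP group. The libraries of a group came from independent replicates, and nothing in the labels tied an SP library to a BM library of the same mouse.

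The members were ordered by group. They were highest in BM Gr-1lo cells, followed by SP Gr-1lo, SP Gr-1hi and BM Gr-1hi cells. Group means took this order in 45 of the 54 members, against 19.2% of all genes tested, and in 40 members every library kept to it, against 9.05%. Summed over the members, the libraries stood at 2107 and 2360 CPM in BM Gr-1lo cells, 1732 and 1693 CPM in SP Gr-1lo cells, 704.6 and 662.3 CPM in SP Gr-1hi cells, and 564 and 540.1 CPM in BM Gr-1hi cells. No 2 groups overlapped. Polr1a, which ran the other way, made up 203.1 and 160.3 CPM of the BM Gr-1hi sums and 72.5 and 96.2 CPM of the SP Gr-1hi sums. As a share of all counts, the members took 0.274% to 0.296% in BM Gr-1lo, 0.214% to 0.223% in SP Gr-1lo, 0.0543% to 0.0608% in SP Gr-1hi and 0.0391% to 0.0413% in BM Gr-1hi libraries. In sorted bulk populations, a lower level in every cell and a smaller number of cells that express a gene cannot be told apart.

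**Figure D1:**
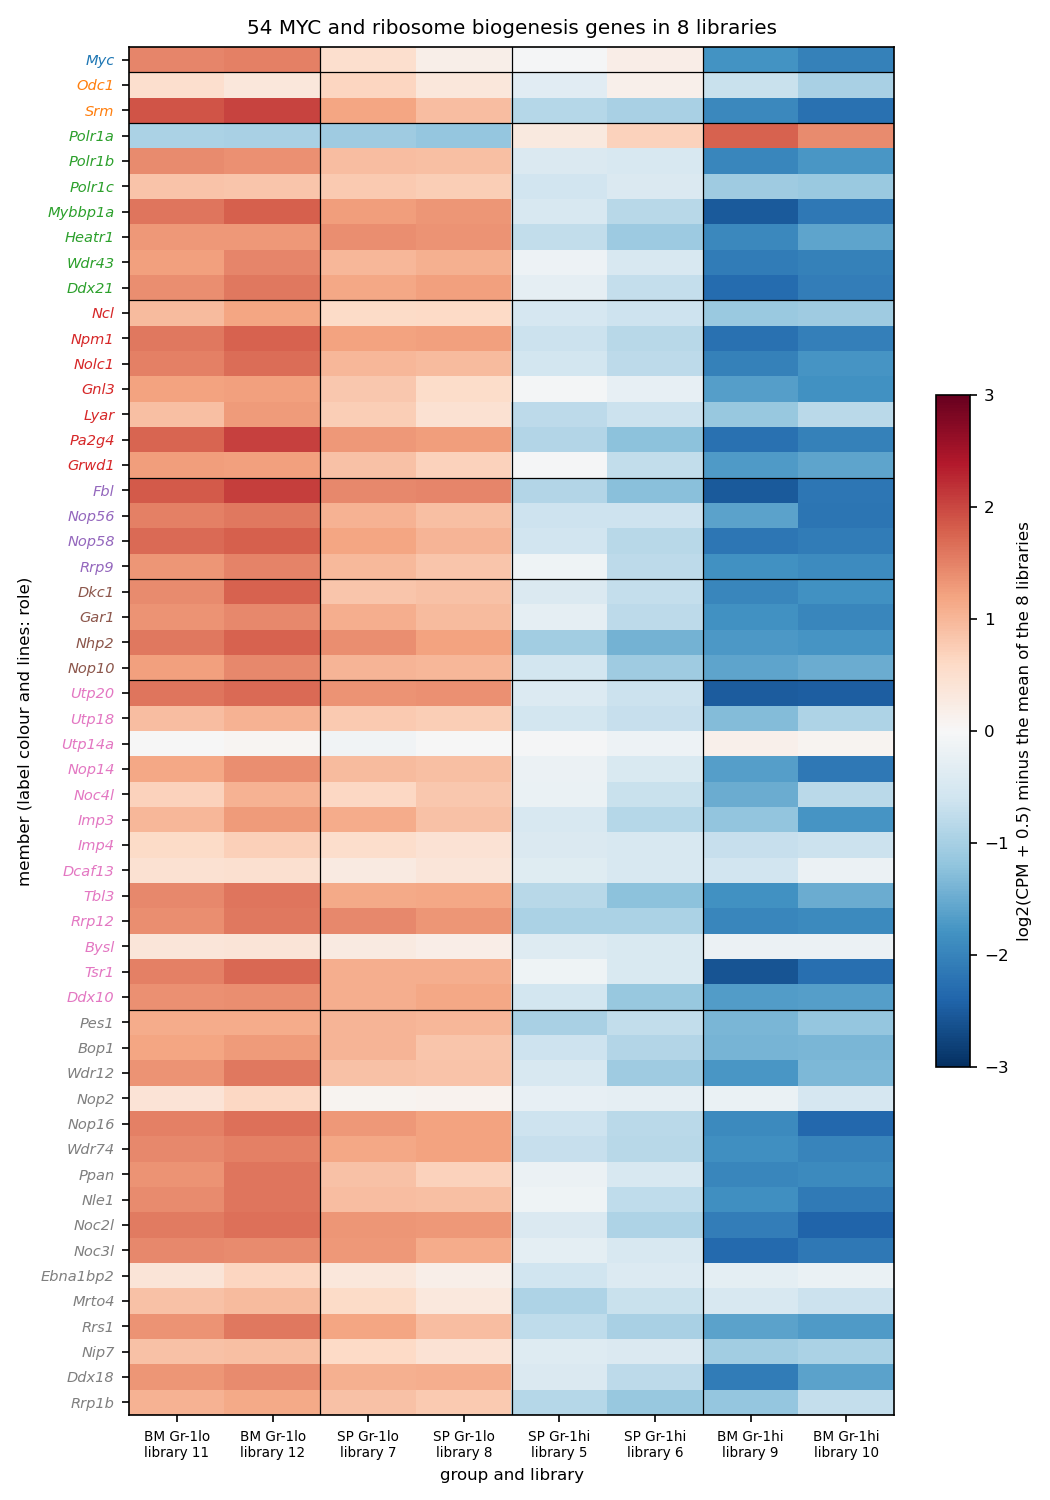
Level of each of the 54 members (rows, with roles separated by lines and label colours) in each of the 8 libraries (columns), as log2(CPM + 0.5) minus the mean of the 8 libraries. Gr-1lo libraries are above the mean and Gr-1hi libraries below it for almost all members, BM Gr-1hi libraries lie lowest, and Polr1a runs the other way.

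Compared per length of transcript, on the scale of TPM, which divides counts by exon length before scaling to the library, the levels of the members also differed from one another. Npm1, which encodes the nucleolar chaperone nucleophosmin, had the highest TPM of the members in 3 groups, with 296 in BM Gr-1lo, 207 in SP Gr-1lo and 35.9 in SP Gr-1hi cells. Pa2g4 and Ncl came next in both Gr-1lo groups. In BM Gr-1hi cells the first place was held by Polr1a, at 25.7 TPM. The median TPM of the members was 22.0 in BM Gr-1lo, 17.6 in SP Gr-1lo, 4.40 in SP Gr-1hi and 1.58 in BM Gr-1hi cells. The number of members above the median TPM of the genes tested was 46, 40, 24 and 14 in the same order.

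Promoter windows of RefSeq (GRCm38.p6), from 250 bases before to 50 bases after the transcription start, were matched for 45 of the 54 members. These members had 49 windows, and in 38 of them an annotated GENCODE transcript of the gene began near the stated start. All windows were searched on both strands for CACGTG, which reads the same on either strand, and for the variants CACGCG and CATGTG. The motif CACGTG was found in 10 of the 45 members (22.2%) and in 8.09% of all 27025 genes with a window. CACGCG was found in 16 members (35.6%, against 10.5% of all genes) and CATGTG in 10 (22.2%, against 15.9%). The member windows were also richer in G and C, with a median of 59.0% against 52.7% for all windows. The sequences below show where CACGTG lies, in capitals, in the 3 members of highest mean CPM among those that hold it (Mybbp1a, Pes1 and Imp4) and in Tsr1 and Nle1, which were added after their values were seen because they differed most between SP and BM Gr-1hi cells among the members with the motif. Each runs 5′ to 3′ on the strand of its gene, from 150 bases before to 30 bases after the start, except that for Mybbp1a only 30 bases around the site are given.
Mybbp1a (chr11:72441347-72441376, plus strand): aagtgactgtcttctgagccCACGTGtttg
Pes1 (chr11:3963825-3964004, plus strand): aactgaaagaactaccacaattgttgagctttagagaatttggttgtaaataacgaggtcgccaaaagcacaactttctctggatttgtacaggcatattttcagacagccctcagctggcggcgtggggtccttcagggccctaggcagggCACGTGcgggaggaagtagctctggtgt
Imp4 (chr1:34439679-34439858, plus strand): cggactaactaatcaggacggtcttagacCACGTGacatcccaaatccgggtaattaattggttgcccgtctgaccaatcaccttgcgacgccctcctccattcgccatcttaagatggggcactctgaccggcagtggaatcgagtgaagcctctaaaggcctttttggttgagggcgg
Tsr1 (chr11:74897930-74898109, plus strand): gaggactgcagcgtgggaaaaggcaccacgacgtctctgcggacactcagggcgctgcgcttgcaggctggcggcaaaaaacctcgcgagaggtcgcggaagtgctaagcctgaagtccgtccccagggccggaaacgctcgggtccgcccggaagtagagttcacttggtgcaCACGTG
Nle1 (chr11:82908366-82908545, minus strand): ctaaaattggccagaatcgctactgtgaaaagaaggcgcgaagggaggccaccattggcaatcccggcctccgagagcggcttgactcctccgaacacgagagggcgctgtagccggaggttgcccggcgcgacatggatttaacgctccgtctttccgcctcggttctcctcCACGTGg
The first base of CACGTG lay 121 bases before the start in Imp4, and 3, 24, 25 and 41 bases after it in Pes1, Nle1, Tsr1 and Mybbp1a. The other members with the motif were Nop2, Utp18, Wdr43, Grwd1 and Utp20. The median log2 FC between SP and BM Gr-1hi cells was 1.83 for the 10 members with CACGTG and 1.0 for the 35 with a window but without it. Between SP and BM Gr-1lo cells it was -0.37 and -0.35. The ranges of the members with and without it overlapped, and a match of letters is not a measured binding site.

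Myc itself (chr15:61985391-61990374, plus strand) kept the order of the members in its group means but not in every library. Its level was 17.5 and 18.1 CPM in BM Gr-1lo, 8.80 and 6.98 CPM in SP Gr-1lo, 5.94 and 7.08 CPM in SP Gr-1hi, and 1.38 and 1.11 CPM in BM Gr-1hi libraries. The BM groups stood far apart, whereas the SP groups overlapped, since SP Gr-1hi library 6 was above SP Gr-1lo library 8. Myc was 5.18-fold higher in SP than in BM Gr-1hi cells (log2 FC 2.37 ± 0.21 SE, adjusted p = 0.000231 in the quasi-likelihood fit of edgeR, with Benjamini-Hochberg adjustment over all genes tested). In Gr-1lo cells the direction was opposite, with Myc 2.26-fold lower in SP than in BM (log2 FC -1.18 ± 0.16 SE, adjusted p = 0.00404). Between Gr-1hi and Gr-1lo cells the log2 FC was -3.83 ± 0.20 in BM (adjusted p = 5.78e-07) but -0.27 ± 0.17 in SP, which did not pass the test (adjusted p = 0.172). The change in the subset difference between the tissues (interaction) was 3.55 ± 0.26 on the log2 scale (adjusted p = 0.00153). The tests between SP and BM did not pass when quantile-normalized TPM were tested instead (adjusted p = 0.159 in Gr-1hi and 0.144 in Gr-1lo cells, with the same directions).

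**Figure D2:**
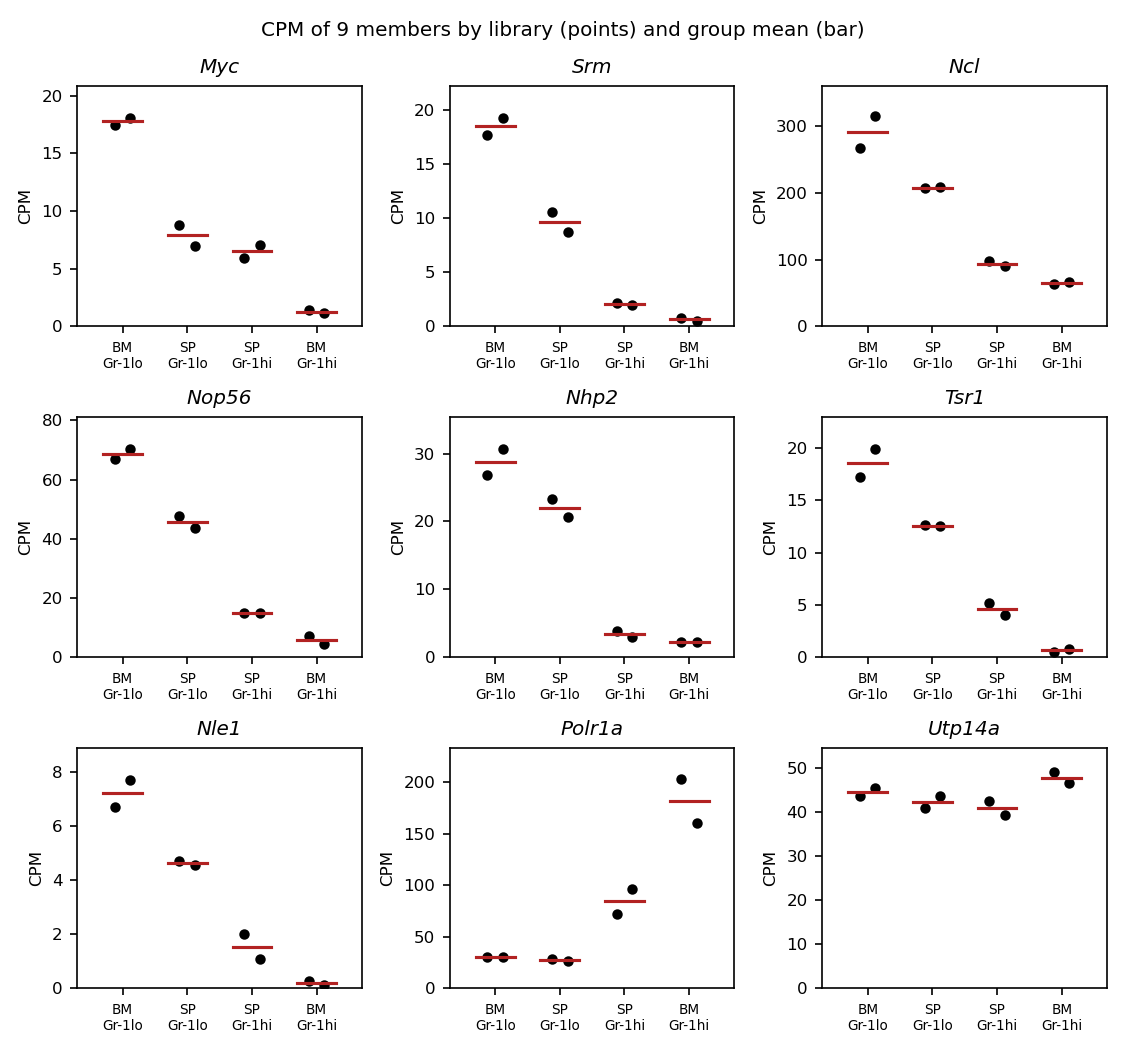
CPM of 9 members (panels, each with its own axis from 0) in the 2 libraries of each group (points) with the group mean (bars). Myc is nearly level between the SP subsets and 14.2-fold apart between the BM subsets, Srm, Ncl, Nop56, Nhp2, Tsr1 and Nle1 descend from BM Gr-1lo to BM Gr-1hi, Polr1a is highest in BM Gr-1hi, and Utp14a is nearly flat.

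Gr-1hi cells of the SP were compared with those of the BM, to ask how cells of one surface phenotype differ between the tissues. Of the 54 members, 43 were higher in SP (20.1% of all genes tested were) and 1, Polr1a, was lower (13.9%), while 10 did not pass the test. The members' median log2 FC was 1.18, against 0.03 over all genes tested. Without libraries 5 and 7, 34 members were higher and 1 lower. With quantile-normalized TPM and an exact test, the procedure closest to the one in the study's methods, 1 member was higher. The members' median log2 FC was then 0.79, against -0.12 over all genes of that procedure. Shares of all genes are given for the main fit only, here and below, so counts under alternatives have none beside them. Libraries of SP and BM did not overlap in 46 members that were higher in SP (35.9% of all genes) and in 5 that were lower (31.9%).

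Both enzymes of polyamine synthesis were among the 43. Odc1, which encodes ornithine decarboxylase, the first step of the pathway, was at 20.1 and 28.2 CPM in SP and at 15.9 and 12.7 CPM in BM Gr-1hi libraries. Srm, which encodes spermidine synthase, was at 2.20 and 1.98 CPM against 0.785 and 0.537 CPM. The groups did not overlap in either gene, and the log2 FC was 0.75 ± 0.19 SE for Odc1 (adjusted p = 0.0178) and 1.65 ± 0.25 SE for Srm (adjusted p = 0.00198). When each library was left out in turn, 32 of the 44 calls between SP and BM Gr-1hi cells held throughout. The calls on Odc1, Nhp2, Nop10, Utp18, Imp3, Tbl3, Ddx10, Pes1, Bop1, Wdr12, Rrs1 and Nip7 did not, mostly without library 5, 9 or 10.

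Of the 7 members for RNA polymerase I and factors that promote its transcription, 6 were higher in SP Gr-1hi cells. Wdr43 and Heatr1 encode parts of the complex that assembles on the nascent ribosomal RNA and is needed for its transcription. The log2 FC was 1.88 for Wdr43 and 0.89 for Heatr1. The polymerase subunits Polr1b and Polr1c stood at 1.79 and 0.65, and the nucleolar RNA helicase Ddx21 at 1.79. The exception was the largest subunit, Polr1a (chr6:71909053-71984935), which is described separately.

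All 4 box C/D members and all 4 box H/ACA members were higher. Box C/D particles carry fibrillarin (Fbl), which methylates ribose in ribosomal RNA, and box H/ACA particles carry dyskerin (Dkc1), which makes pseudouridine. Fbl was at 9.31 and 7.11 CPM in SP against 2.65 and 3.55 CPM in BM Gr-1hi libraries (log2 FC 1.41 ± 0.19 SE). Nop56, a core protein of box C/D particles, was at 14.9 and 14.99 CPM against 7.25 and 4.66 CPM (1.32 ± 0.18). Dkc1 was at 6.93 and 5.55 CPM against 2.09 and 2.35 CPM (1.49 ± 0.19). None of these 3 genes had overlapping groups. Nhp2, a small protein of the H/ACA core, was closer between the tissues, with 3.92 and 2.93 CPM against 2.24 and 2.19 CPM (0.63 ± 0.19, adjusted p = 0.0342), and without libraries 5 and 7 it did not pass (adjusted p = 0.231).

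Of the 7 nucleolar chaperones and abundant nucleolar proteins, 6 were higher. Ncl (nucleolin), the member of highest mean CPM, was at 97.7 and 90.7 CPM in SP against 63.6 and 66.4 CPM in BM Gr-1hi libraries, a 1.45-fold difference (adjusted p = 0.00496). Npm1 was at 50.7 and 44.4 CPM against 16.5 and 19.0 CPM, a 2.68-fold difference (adjusted p = 0.000173). Grwd1 and Gnl3 (nucleostemin) had log2 FC of 2.21 and 1.78, and Lyar, the one that did not pass, had 0.28.

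Factors of the small subunit were higher in 8 of 13 members, and factors of the large subunit in 12 of 16. The 3 members with the largest increase were Nle1, Noc3l and Tsr1. Nle1 (Notchless), which helps to remodel the large subunit precursor, was at 1.99 and 1.08 CPM in SP and at 0.262 and 0.124 CPM in BM Gr-1hi libraries, a 7.78-fold difference (log2 FC 2.96 ± 0.45 SE, adjusted p = 0.0022). These BM values rest on 7 and 3 counts, so that Nle1 was close to the limit of detection there. Noc3l, another factor of the large subunit, was at 2.62 and 2.23 CPM against 0.262 and 0.372 CPM, 7.67-fold higher (2.94 ± 0.26, adjusted p = 0.000251). Tsr1, which acts late on the small subunit, was at 5.15 and 4.02 CPM against 0.523 and 0.784 CPM, 7.05-fold higher (2.82 ± 0.24, adjusted p = 0.000209). Both SP libraries of Noc3l and Tsr1 were thus several times above both BM libraries. The BM values rest on few counts here too, 7 and 9 for Noc3l and 14 and 19 for Tsr1. Rrp12, a further small subunit factor, was at 3.13 and 3.16 CPM against 1.31 and 1.36 CPM (1.24 ± 0.16). Libraries of the tissues did not overlap in any of these 4 genes. Pes1, Bop1 and Wdr12, which act as one complex on the large subunit, were all higher, with log2 FC of 0.43, 0.68 and 1.0. Besides Lyar, the members that did not pass were Utp14a, Noc4l, Imp4, Dcaf13 and Bysl of the small subunit and Nop2, Ebna1bp2, Mrto4 and Rrp1b of the large subunit, with log2 FC from -0.27 to 0.73.

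In Gr-1lo cells the tissue difference was smaller and opposite in sign. No member was higher in SP than in BM by edgeR (4.88% of all genes tested were), none at an unadjusted p under 0.05 (11.8% of all genes) and none by DESeq2. Lower in SP were 8 members (0.697% of all genes), and 29 had an unadjusted p under 0.05 with a lower level in SP (8.32% of all genes). These 8 were Myc, Srm, Dkc1, Ppan, Nop58, Nolc1, Pa2g4 and Ncl. The median log2 FC of the 54 members was -0.37, against -0.01 over all genes tested, and in 48 members both SP libraries were below both BM libraries (32.5% of all genes), while in 1 they were above them (27.1%).

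The call of single members in Gr-1lo cells depended on the libraries and the procedure. The count of 8 became 1 when library 8 or library 12 was left out, 2 when library 7 was, 4 when library 11 was, and 12 when library 5 or library 6 was. It was 4 without libraries 5 and 7 together, 17 with DESeq2 and 3 with quantile-normalized TPM. Only Myc remained below the threshold without each of the 8 libraries in turn, and it was the only member of the 8 with an FC of at least 2 (0.215% of all genes). Without library 8 the adjusted p of Srm, Dkc1, Ppan, Nop58, Nolc1, Pa2g4 and Ncl was above 0.05.

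Srm was at 10.5 and 8.73 CPM in SP and at 17.7 and 19.3 CPM in BM Gr-1lo libraries, 1.92-fold lower in SP (log2 FC -0.94 ± 0.16 SE, adjusted p = 0.0104). Dkc1 was at 17.3 and 17.8 CPM against 26.2 and 33.8 CPM (-0.78 ± 0.15, adjusted p = 0.0221). Ncl was at 207.7 and 208.8 CPM against 268 and 315 CPM (-0.48 ± 0.10, adjusted p = 0.024). In all 3 genes the SP libraries were close to each other and below both BM libraries. Ppan, a large subunit factor, Nop58, a core protein of box C/D particles, Nolc1, a chaperone of both kinds of particle, and Pa2g4, a growth-regulated nucleolar protein, had log2 FC of -0.71, -0.66, -0.63 and -0.63. Npm1 missed the threshold (-0.45 ± 0.11, adjusted p = 0.0516).

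By role, the calls in Gr-1lo cells were 3 of 7 nucleolar proteins, 1 of 4 box C/D, 1 of 4 box H/ACA, 1 of 2 polyamine enzymes, 1 of 16 large subunit members and Myc. None of the 7 members for RNA polymerase I and none of the 13 small subunit members passed by edgeR, although 3 of each had an unadjusted p under 0.05, all lower in SP. Odc1 and Heatr1 were the only members with a fitted log2 FC above 0, both at 0.08. Odc1 was at 40.2 and 32.5 CPM in SP against 36.3 and 32.6 CPM in BM Gr-1lo libraries, and the groups overlapped. Heatr1 was at 57.7 and 56.5 CPM against 54.2 and 53.9 CPM.

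**Figure D3:**
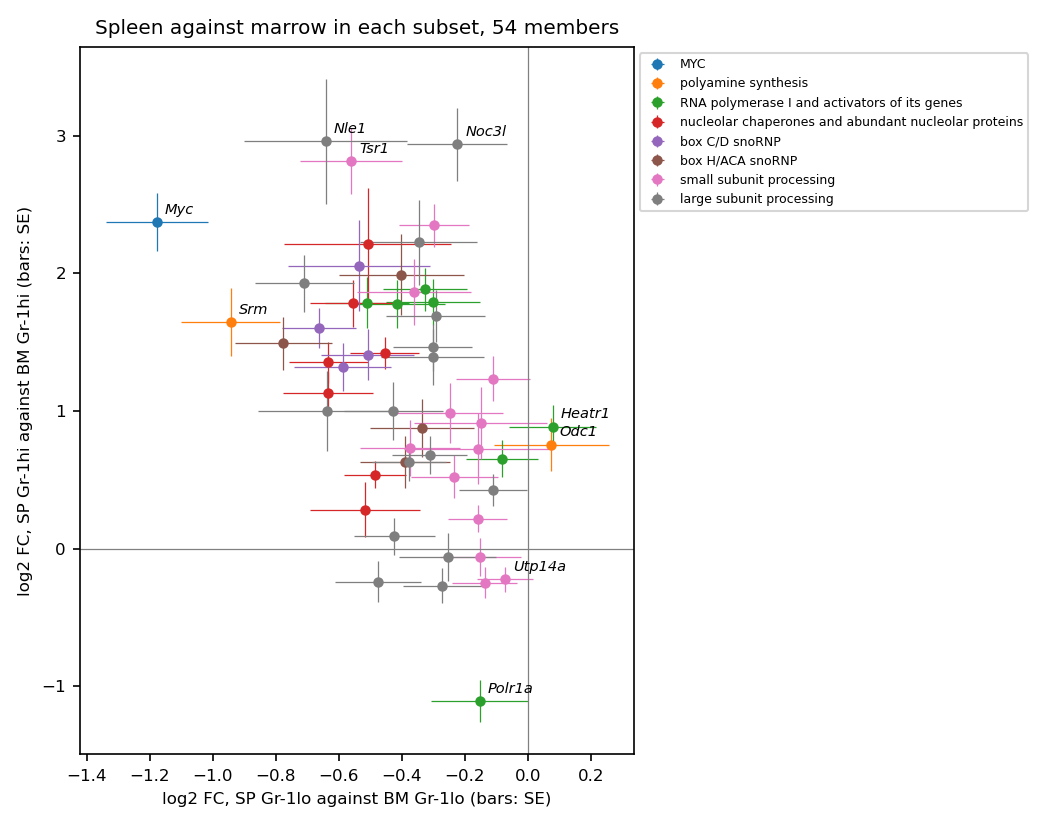
Log2 FC of SP against BM in Gr-1lo cells (horizontal axis) and in Gr-1hi cells (vertical axis) for the 54 members, with SE as bars and colours for roles. Most points lie left of 0 and above 0, with Myc and Srm farthest left, Nle1, Noc3l and Tsr1 highest, and Polr1a lowest at -1.11.

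The 2 tissue comparisons were then set against each other. In 45 members the fitted log2 FC was below 0 in Gr-1lo cells and above 0 in Gr-1hi cells, in 7 it was below 0 in both, and in Odc1 and Heatr1 it was above 0 in both. The interaction, which tests whether the tissue difference was the same in both subsets, passed with a positive sign in 40 members (10.3% of all genes tested) and with a negative sign in 1, Polr1a (6.08%). Its median over the members was 1.67, against 0.03 over all genes. Without libraries 5 and 7, 33 members passed with a positive sign and none by edgeR with a negative sign, where Polr1a had an adjusted p of 0.105. The call on Polr1a was also lost when any 1 of libraries 7, 8, 11 and 12 was left out, and at an FC of at least 2 no member had a negative sign (2.0%). Of the 41 calls, 29 held without each library in turn, and those on Polr1a, Polr1c, Heatr1, Grwd1, Nhp2, Nop10, Utp18, Tbl3, Ddx10, Bop1, Wdr12 and Nip7 did not. All 8 members that were lower in SP Gr-1lo cells were also higher in SP Gr-1hi cells. The interaction was above 3 on the log2 scale in 4 members, Nle1 (3.60), Myc (3.55), Tsr1 (3.38) and Noc3l (3.16). It did not pass in 13, among them Odc1 (0.68, adjusted p = 0.116), Pes1 (0.54, adjusted p = 0.0533) and Ebna1bp2 (0.00, adjusted p = 0.998).

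Next, Gr-1hi cells were compared with Gr-1lo cells of the same tissue. In BM, 52 of the 54 members were lower in Gr-1hi cells (41.2% of all genes tested) and 1, Polr1a, was higher (34.5%), and these counts did not change without libraries 5 and 7. The median log2 FC was -3.52, against -0.17 over all genes. When an adjusted p under 0.01 was asked together with more than an 8-fold difference, 35 members were lower (10.1% of all genes) and none was higher by edgeR (6.56%), Polr1a being 6.01-fold higher. Libraries of the subsets did not overlap in 52 members that were lower (48.2%) and 2 that were higher (40.6%). In SP, 51 members were lower in Gr-1hi cells (37.8%) and 1, Polr1a, was higher (33.6%), with a median log2 FC of -1.65 against -0.09. Without libraries 5 and 7, 49 were lower and the median was -1.81, and with quantile-normalized TPM 26 were lower. By the stricter rule with an 8-fold difference, none of the members was lower (2.93%) or higher (4.44%) in SP by edgeR. Libraries did not overlap in 51 members that were lower (45.6%) and 1 that was higher (40.6%), and the calls on Odc1 and Nop2 were lost without library 5 or 7, and that on Nop2 also without library 6 or 8.

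The largest differences in BM were those of Nle1 (36.3-fold lower in Gr-1hi cells), Noc3l (30.9-fold) and Tsr1 (28.5-fold). Nle1 was at 6.70 and 7.69 CPM in BM Gr-1lo libraries, Noc3l at 9.87 and 9.73 CPM, and Tsr1 at 17.2 and 19.9 CPM. In SP these genes were 2.99-, 3.45- and 2.74-fold lower in Gr-1hi cells. In SP the largest differences were those of Nhp2 (6.39-fold), Fbl (5.99-fold) and Rrp12 (5.65-fold). Nhp2 was at 23.3 and 20.6 CPM, Fbl at 48.6 and 49.9 CPM, and Rrp12 at 18.4 and 17.2 CPM in SP Gr-1lo libraries. The genes with the widest gap in BM were therefore not those with the widest gap in SP.

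**Figure D4:**
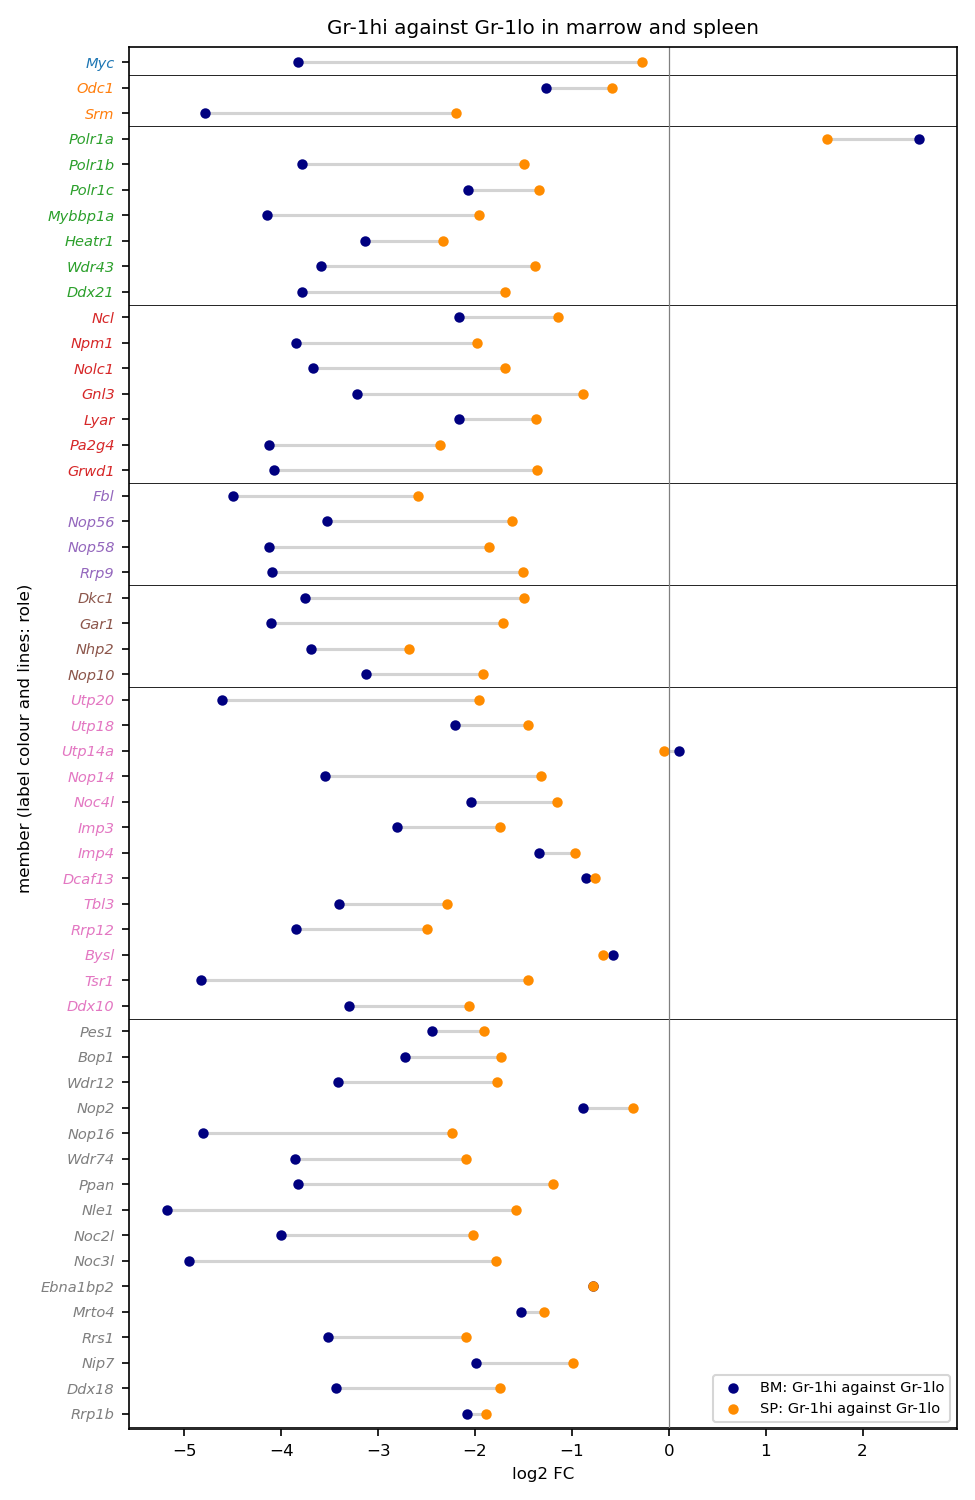
Log2 FC of Gr-1hi against Gr-1lo cells in BM (dark blue) and in SP (orange) for each of the 54 members, grouped by role. The SP point lies nearer to 0 than the BM point for nearly all members, the points lie farthest apart for Nle1 (-5.18 in BM and -1.58 in SP) and Myc (-3.83 and -0.27), and Polr1a lies on the other side of 0 in both tissues.

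A position between 2 groups was computed to describe how far SP Gr-1hi cells lay above BM Gr-1hi cells, with the mean CPM of BM Gr-1hi cells set to 0% and that of SP Gr-1lo cells to 100%. It was computed for the 48 members whose mean was at least 2-fold higher in SP Gr-1lo than in BM Gr-1hi cells. Polr1a ran the other way, with means of 27.2 CPM in SP Gr-1lo and 181.7 CPM in BM Gr-1hi cells, and was left out. Nop2, Utp14a, Dcaf13, Bysl and Ebna1bp2 were also left out, and all of these but Nop2 had a lower mean in SP than in BM Gr-1hi cells. The filter used the same 2 groups as the scale and kept a different part of each list. Differences between the medians of lists may therefore depend in part on the filter. The median was 19.5%, with quartiles of 13.4% and 26.3%. Myc stood highest at 79.2%, followed by Gnl3 (45.6%), Odc1 (44.8%) and Ppan (36.3%), and the lowest were Mrto4 (-14.1%) and Rrp1b (-1.76%). Among other genes of the pathway, the median was 10.4% for 56 further ribosome biogenesis genes, 10.0% for 26 further MYC targets and 13.9% for 72 cytosolic ribosomal proteins. It was -6.10% for 29 proliferation genes, -2.26% for 5 primary granule genes and 3.51% for 7 monocyte genes. Lists of lymphoid, plasma and erythroid cells were above the members. Their medians were 766% for 11 B cell, 376% for 11 T cell, 120.5% for 10 plasma cell and 273% for 8 erythroid markers. Above 100%, the SP Gr-1hi mean exceeded that of both groups of the scale. For 6 RNA polymerase I machinery genes the median was 12.6%. Only 2 of the 11 MYC network genes tested could be placed, and they stood far apart, Mycl at 186% and Mxd3 at -4.52%. The 4 haematopoietic progenitor genes placed ran from -77.4% to 116%, with a median of -7.17%. These positions are descriptions without a test, and all of them use the same 6 libraries.

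**Figure D5:**
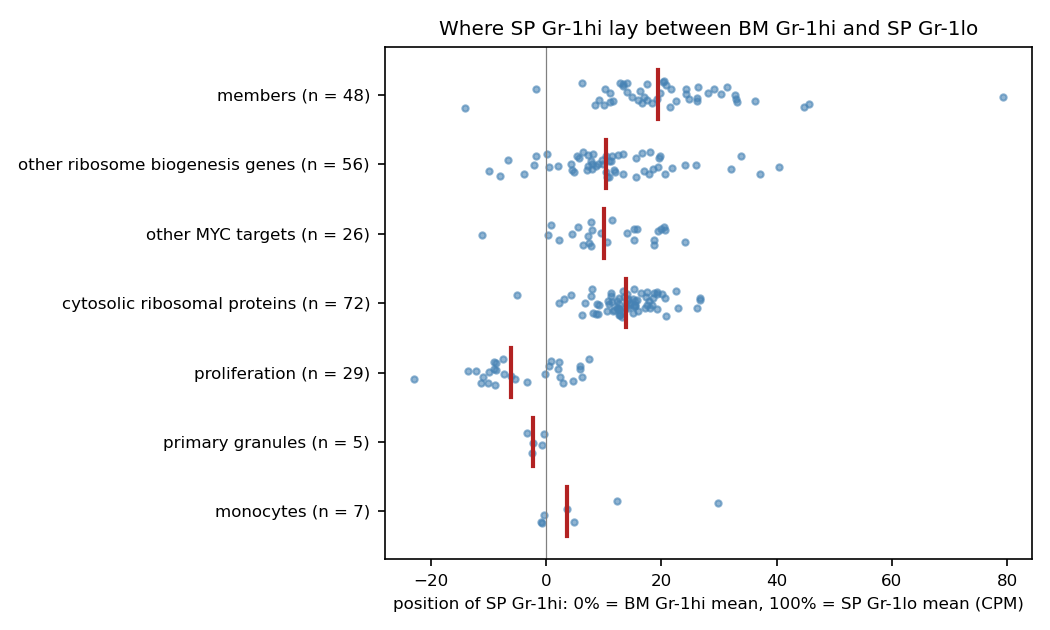
Position of SP Gr-1hi cells on a scale from BM Gr-1hi cells (0%) to SP Gr-1lo cells (100%), from group means of CPM. Each point is a gene and each red bar the median of its list, which is 19.5% for the members and -6.10% for proliferation genes, and the point at 79.2% is Myc.

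Further genes of the pathway were taken from lists and counted in the same comparisons. Of all genes tested, 20.1% were higher and 13.9% lower in SP Gr-1hi cells, and 4.88% and 0.697% in SP Gr-1lo cells. Of 79 ribosome biogenesis genes outside the 54, 29 were higher in SP than in BM Gr-1hi cells and 4 were lower, namely Riok1, Riok2, Efl1 and Eif6. The median log2 FC of these 79 was 0.25. In Gr-1lo cells 1 of them, Ruvbl1, was lower in SP (25 at an unadjusted p under 0.05), and none was higher by edgeR, nor at an unadjusted p under 0.05. Of 13 further genes of the RNA polymerase I machinery, 5 were higher and 1, Taf1b, was lower in SP Gr-1hi cells. Tcof1, which encodes the nucleolar protein treacle, had the largest increase of these (log2 FC 1.72, adjusted p = 0.00032), whereas Ubtf, which encodes the factor that keeps ribosomal RNA genes open, had a log2 FC of 0.01 (adjusted p = 0.96).

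Of 30 MYC targets outside ribosome biogenesis, 18 were higher and 2, Ldha and Gart, were lower in SP than in BM Gr-1hi cells. In Gr-1lo cells 6 were lower in SP, with Shmt1 (log2 FC -0.90) and C1qbp (-0.73) farthest from 0. Of 79 cytosolic ribosomal proteins, the products that ribosome biogenesis assembles, 60 were higher and none lower in SP Gr-1hi cells by edgeR, with none lower at an unadjusted p under 0.05 and a median log2 FC of 0.48. In Gr-1lo cells none of the 79 passed by edgeR, and 11 had an unadjusted p under 0.05, all lower in SP, as 8.32% of all genes were. Proliferation genes are given beside them because growth and division often go together. Of 30 such genes, 5 were higher and 2 lower in SP Gr-1hi cells (20.1% and 13.9% of all genes tested were), with a median log2 FC of -0.37. All 30 were lower in Gr-1hi than in Gr-1lo cells in both tissues (41.2% of all genes in BM and 37.8% in SP). Mki67, the proliferation gene of highest mean CPM, had a log2 FC of -0.36 (adjusted p = 0.16).

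The partners and antagonists of MYC had their own pattern. Mxd1, which competes with MYC for MAX and represses E-box genes, was at 2732 and 2991 CPM in SP Gr-1hi, 3154 and 3017 CPM in BM Gr-1hi, 72.5 and 83.8 CPM in SP Gr-1lo, and 42.1 and 51.9 CPM in BM Gr-1lo libraries. It was far higher in both Gr-1hi groups, and it was also higher in SP than in BM Gr-1lo cells (log2 FC 0.73, adjusted p = 0.012). Max was at 298 and 361 CPM in SP and at 548 and 530.3 CPM in BM Gr-1hi libraries, lower in SP (log2 FC -0.71, adjusted p = 0.0045). Mxi1, Mxd4 and Mlx were also lower in SP than in BM Gr-1hi cells (-0.43, -0.50 and -0.59), and Mga was higher (0.61). Mycl, a paralog of Myc, was at 1.326 and 1.340 CPM in SP Gr-1hi and at 0.591 and 0.881 CPM in SP Gr-1lo libraries but at 0.151 CPM or less in every BM library, and it was higher in SP in both subsets. Mnt, Mlxip, Mxd3 and Mlxipl did not pass between SP and BM in either subset, and Mycn, with at most 0.0756 CPM, was not tested.

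Polr1a was the only member that was higher in Gr-1hi than in Gr-1lo cells. Its level was 203.1 and 160.3 CPM in BM Gr-1hi, 72.5 and 96.2 CPM in SP Gr-1hi, 28.1 and 26.3 CPM in SP Gr-1lo, and 30.5 and 29.96 CPM in BM Gr-1lo libraries. The Gr-1hi groups stood apart from each other and above both Gr-1lo groups. It was 6.01-fold higher in BM Gr-1hi than in BM Gr-1lo cells (adjusted p = 1.24e-06), 3.10-fold higher in SP (adjusted p = 2.26e-05) and 2.15-fold lower in SP than in BM Gr-1hi cells (adjusted p = 0.00142). Reads of this gene were counted over the whole gene, so the part of the transcript they came from is unknown.

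Utp14a, a small subunit factor, differed least among the groups. It was at 43.5 and 45.4 CPM in BM Gr-1lo, 41.0 and 43.6 CPM in SP Gr-1lo, 42.6 and 39.2 CPM in SP Gr-1hi, and 49.1 and 46.5 CPM in BM Gr-1hi libraries, and it passed no comparison. When libraries were scaled by their totals only, its log2 FC between the BM subsets turned from 0.10 to -0.71 and passed (adjusted p = 0.000132). Bysl and Ebna1bp2 ranged more widely, at 9.35 to 17.0 CPM and at 17.7 to 42.8 CPM. Both were lower in Gr-1hi than in Gr-1lo cells in BM (log2 FC -0.57 and -0.78) and in SP (-0.68 and -0.78), and neither passed between SP and BM.

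Transcripts of lymphoid and erythroid cells moved with tissue and subset in these libraries. Summed B cell marker CPM was 1719 and 1066 in SP Gr-1hi, 389 and 629 in SP Gr-1lo, 199 and 177 in BM Gr-1hi, and 226 and 282 in BM Gr-1lo libraries. All 12 B cell markers were higher in SP than in BM Gr-1hi cells and 10 were in Gr-1lo cells (20.1% and 4.88% of all genes tested). T cell markers summed to 167 and 106, 35.1 and 53.2, 11.7 and 8.34, and 2.89 and 3.08 CPM in the same order, with 11 of 12 higher in SP Gr-1hi and 12 of 12 in SP Gr-1lo cells. Both lists were thus highest in the SP Gr-1hi libraries. Plasma cell markers summed to 2073 to 2277 CPM in SP Gr-1hi, 1706 to 2108 in SP Gr-1lo, 200.4 to 213 in BM Gr-1hi and 431 to 480 in BM Gr-1lo libraries, and 10 and 7 of 11 were higher in SP Gr-1hi and Gr-1lo cells. Erythroid markers summed to 233 to 749 CPM, 190 to 259, 48.9 to 60.1 and 38.3 to 50.4 CPM, with 7 of 9 higher in SP in each subset. No T cell marker was at 0 in any library, and of the B cell markers only Cr2 was, in 1 BM Gr-1lo library. The part of other cells in the members' levels was not tested.

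Some members share sequence with other genes. Transcripts of Ddx18, Mrto4, Nop56, Npm1, Odc1 and Wdr12 match pseudogenes or other genes at 97% identity or more over at least 200 bases, and Bysl, Fbl, Imp4, Noc2l, Tbl3, Tsr1 and Utp14a share at least 200 bases with other annotated transcripts. Exons of Gnl3, Ncl, Nop56, Nop58, Pa2g4 and Ppan overlap small RNA or other genes on the same strand. Levels of these 18 members are uncertain to the extent that reads were split between copies.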

How the data were processed

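RNA of sorted sanroque cells was sequenced in 8 libraries of stranded mRNA as paired reads of 101 bases. According to the study's methods and processing notes, the authors checked reads with FastQC, trimmed them with Sickle, aligned them to GRCm38 (mm10) with STAR and counted them per gene with featureCounts and a GENCODE annotation. The deposited table holds raw counts per gene for 54188 genes. Groups and replicates came from the sample labels, and the deposited values carry no normalization.

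Tests were run in R 4.3.3 with edgeR 4.0.16. The default filter (filterByExpr) left 17650 genes, libraries were scaled by TMM, and all 8 libraries entered a robust quasi-likelihood model with 1 term per group (4 residual degrees of freedom). A gene passed at an adjusted p (Benjamini-Hochberg over the 17650 genes) of at most 0.05 at any fold change (FC). SEs came from the F statistic. The interaction was the Gr-1hi against Gr-1lo difference in SP minus that in BM. The script was tested on simulated data. TPM used exon lengths of GENCODE M21, which holds 53947 of the 54188 identifiers. With 2 libraries per group, p-values measure the spread between these libraries only, and intervals from counts do not cover this spread.

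The members, the further lists and their order were chosen with earlier results of these data known. By rule, the members described singly were Myc, the member of highest mean CPM of each role and the 3 members with the largest positive and negative log2 FC in each comparison. The MYC network genes and the 3 genes of highest mean CPM of each other list could also be named. Npm1, members given by their log2 FC only and list genes in counts of 5 or fewer were chosen after their values were seen. Alternatives were RLE and upper-quartile scaling, library totals, no filter, a fit of the 4 libraries compared, leaving out libraries, DESeq2 1.42.0, quantile-normalized TPM with edgeR's exact test, and stricter thresholds.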

Additional observations from a re-analysis of the deposited data

Results flagged for a closer look

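The difference between SP and BM was not the same in Gr-1hi and Gr-1lo cells, by the interaction term of the edgeR model, for 40 members with a positive sign and 1 with a negative sign. A positive sign means that SP stood higher against BM in Gr-1hi than in Gr-1lo cells. Among the members described singly, the interaction on the log2 scale was 3.60 for Nle1, 3.55 for Myc, 3.38 for Tsr1 and 3.16 for Noc3l. It was 2.59 for Srm, 2.27 for Dkc1, 1.92 for Fbl and 1.91 for Nop56. Smaller values were those of Rrp12 (1.35), Ncl (1.02), Nhp2 (1.02) and Heatr1 (0.81), and the negative one was that of Polr1a (-0.95). B cell and T cell marker sums moved with tissue in both subsets, and their part in these values was not tested.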

How the results depend on the processing

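No paired analysis was possible because the replicate numbers in the labels are library numbers, which no 2 groups share. The direction of the members' median log2 FC did not change in any of the 5 contrasts under any alternative. For the 18 members described singly, 1283 of 1404 recomputed values kept their direction and their side of the threshold, 71 no longer passed, 32 newly passed and 18 changed sign. Of these 18, only Utp14a between the BM subsets with library totals only (-0.71) passed under either setting. The others were Utp14a between the BM subsets with no filter (-0.00077), between the SP subsets with RLE scaling (0.085), upper-quartile scaling (0.034) and DESeq2 (0.051) and in the interaction with library totals only (0.061), Myc between the SP subsets with quantile-normalized TPM (0.11), Odc1 between SP and BM Gr-1lo cells without libraries 5 and 7 (-0.10) and when each library was left out (-0.0800 to 0.23), Bysl in the interaction with library totals only (0.10), and Ebna1bp2 in the interaction with RLE scaling (-0.016), no filter (-0.0198) and when each library was left out (-0.19 to 0.13). The cause was not tested in any case below, and the counts below have no share of all genes beside them. The number of members lower in SP than in BM Gr-1lo cells was 17 with no filter, 22 with a fit of the 4 libraries compared, 4 without libraries 5 and 7, 17 with DESeq2, 3 with quantile-normalized TPM, 1 at an FC of at least 2, and 1 to 12 when each library was left out in turn. Between SP and BM Gr-1hi cells, 1 member was higher with quantile-normalized TPM, and 2 were lower with RLE scaling and with DESeq2 (1 to 2 when each library was left out). The median log2 FC there was 1.39 with library totals only, 0.79 with quantile-normalized TPM and 1.0 to 1.22 when each library was left out. Between the BM subsets, 2 members were higher with RLE scaling and 0 by edgeR when an adjusted p under 0.01 and more than an 8-fold difference were asked, and the median was -3.37 with RLE scaling, -4.33 with library totals only and -2.87 with quantile-normalized TPM. Between the SP subsets, 26 members were lower with quantile-normalized TPM, and 0 were lower and 0 higher at the stricter threshold by edgeR. The median there was -1.52 with RLE scaling, -1.57 with upper-quartile scaling, -2.25 with library totals only, -1.78 with no filter, -1.81 without libraries 5 and 7, -1.55 with DESeq2, -1.39 with quantile-normalized TPM and -1.91 to -1.49 when each library was left out. For the interaction, 0 members were negative without libraries 5 and 7 and at an FC of at least 2 (0 to 1 when each library was left out), and the median was 1.88 with library totals only, 1.49 without libraries 5 and 7 and 1.325 to 1.76 when each library was left out. Library totals only shifted the median of all genes tested from -0.17 to -0.99 between the BM subsets and from -0.09 to -0.69 between the SP subsets. The interaction could not be fitted with the 4 libraries compared or with quantile-normalized TPM. Where 1 library was left in a group, it was assumed to vary like the other groups. At 3 to 21 counts per library, Nle1, Noc3l, Grwd1, Nop16, Rrp9, Gar1, Tsr1 and Srm in BM Gr-1hi cells rest on the fewest reads.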

Other observations

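Genes that mark stages of granulocyte development stood in a different order from the members. Secondary granule genes, which are expressed in maturing neutrophils, summed to 80284 and 88748 CPM in BM Gr-1hi libraries, 35062 and 62653 CPM in SP Gr-1hi, 10886 and 9627 CPM in SP Gr-1lo, and 6227 and 5354 CPM in BM Gr-1lo libraries. Of 8 such genes, 6 were lower in SP than in BM Gr-1hi cells and 5 were higher in SP than in BM Gr-1lo cells, the reverse of the members in both subsets. Of 9 mature neutrophil genes, 3 were lower and 2 higher in SP Gr-1hi cells, and 3 were higher in SP Gr-1lo cells. Primary granule genes, which mark early precursors, were lower in SP in 3 of 6 in Gr-1hi and in 1 of 6 in Gr-1lo cells. For all genes tested, the shares were 20.1% higher and 13.9% lower in SP Gr-1hi cells, and 4.88% and 0.697% in SP Gr-1lo cells.

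Of 10 haematopoietic progenitor genes, 4 were lower and 1 higher in SP than in BM Gr-1hi cells (13.9% and 20.1% of all genes tested). In SP Gr-1lo cells 3 were lower (0.697%). Of 10 monocyte genes, 3 were higher and 2 lower in SP Gr-1hi cells (20.1% and 13.9% of all genes tested). None passed between SP and BM Gr-1lo cells by edgeR. There 1 had an unadjusted p under 0.05 with a higher and 2 with a lower level in SP (11.8% and 8.32% of all genes). Monocyte markers summed to 8292 and 8328 CPM in SP Gr-1lo and to 2431 and 3432 CPM in SP Gr-1hi libraries.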
